A study of Mus musculus with 6 samples.

Results

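The 33 genes described here encode proteins that build, amplify, anchor and cap centrioles and basal bodies, and they were taken by symbol from a table of 55276 gene symbols measured in mouse oviducts. All 33 were found, and all 33 passed the filter on low values. A multiciliated cell needs many basal bodies, one under each motile cilium, whereas a dividing cell copies each centriole once. In multiciliated cells most new centrioles grow around deuterosomes, ring-like scaffolds built on DEUP1, and the rest grow around the walls of the parent centrioles, where CEP63 and CEP152 recruit the kinase PLK4. The finished centrioles then move to the apical surface, dock there through their distal appendages and form a transition zone at the base of each cilium. In the oviduct, the cilia of these cells line the tube together with secretory cells and take part in moving the embryo. Only 3 of the 33 genes are used mainly by multiciliated cells, namely Deup1, Ccdc78 and Cetn4. The other 30 serve centrioles in cells of many kinds and are called general centriole genes below.

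RNA came from whole oviducts on day 2 of pregnancy, from 3 libraries of PgrCreCdc42f/f females and 3 libraries of Cdc42f/f littermates. Both groups carry Cdc42 alleles with loxP sites around exon 2, in C57BL/6 mice at least 8 weeks old. In PgrCreCdc42f/f mice, Cre recombinase is expressed from the Pgr locus, which encodes the progesterone receptor, and cuts this exon out, so the groups differ by the Cre allele as well as by the deletion, and no library carried PgrCre without floxed alleles. By the study's own staining, loss of CDC42 was confined to the isthmus of the oviduct and spared the ampulla. The study saw the most ciliated cells in the ampulla of Cdc42f/f oviducts. A library held RNA of the whole tube, in which fewer cells of a type and less RNA per cell cannot be told apart. The labels describe biological replicates, and the number of animals in a library is not stated. P values therefore measure the spread between these libraries.

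Levels were given as RPKM, reads per kilobase of gene, scaled to the depth of the library. Each library held 42.4 M to 46.4 M reads in the rows whose reads could be recovered. Cdc42 itself had 114, 126 and 121 RPKM in PgrCreCdc42f/f oviducts, against 128, 130 and 142 RPKM in Cdc42f/f oviducts, with a log2 difference of -0.15 ± 0.08 (SE, limma, adjusted p = 0.359). The values cover the whole gene and do not show exon 2 by itself. By qPCR for RNA and western blot for protein, the study reported less Cdc42 in PgrCreCdc42f/f oviducts. Markers of the ciliary axoneme and its assembly had a summed level of 446 to 710 RPKM in PgrCreCdc42f/f libraries and 616 to 895 RPKM in Cdc42f/f libraries, so the defining genes of ciliated cells were measured in every library. Tppp3 made up 149 to 247 RPKM of this sum in PgrCreCdc42f/f and 138 to 199 RPKM in Cdc42f/f libraries. All 15 of these markers were highest, among PgrCreCdc42f/f libraries, in replicate 1. Of 8 oocyte and early embryo markers, 0 passed the filter, and their summed level was 0.726 to 1.26 RPKM over the 6 libraries.

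The question was whether genes specific to multiciliated cells differed between the genotypes otherwise than general centriole genes. By limma on log2(RPKM + 0.1), with Benjamini-Hochberg adjustment over 17584 genes, 0 of the 33 genes were called higher and 0 were called lower at an adjusted p below 0.05, where 1.65% of all tested genes were called, 0.762% higher and 0.893% lower. With limma voom on the recovered reads, 0 of 33 were called too, where 2.47% of 16992 tested genes were called and 1.3% were called lower. At an unadjusted p below 0.05, 6 of the 33 passed, against 20.8% of all tested genes (11.0% lower and 9.74% higher). These were Deup1, Ccdc78, Poc5, Cby1 and Ahi1, all with lower values in PgrCreCdc42f/f oviducts, and Cep120 with higher values. In 7 of 33 genes (21.2%) the 2 genotypes did not overlap, 5 of them lower and 2 higher in PgrCreCdc42f/f oviducts, where 27.4% of all tested genes did not overlap, 13.9% lower and 13.5% higher.

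The log2 difference was negative for 24 of the 33 genes (72.7%), where 49.1% of all tested genes had a negative one. That count rested on single libraries, since it was 17 of 33 without PgrCreCdc42f/f replicate 2, and also without PgrCreCdc42f/f replicate 3. The median log2 difference was -0.45 for the 3 multiciliated cell genes, -0.05 for the 30 general centriole genes and 0.01 for all tested genes. These medians are descriptions, without a test. The 95% interval of a single gene reached between 0.15 and 0.54 to each side on the log2 scale, with a median of 0.31. Without one library at a time, the median of the general genes lay between -0.09 and 0.01 and that of the multiciliated cell genes between -0.61 and -0.31.

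**Figure D1:**
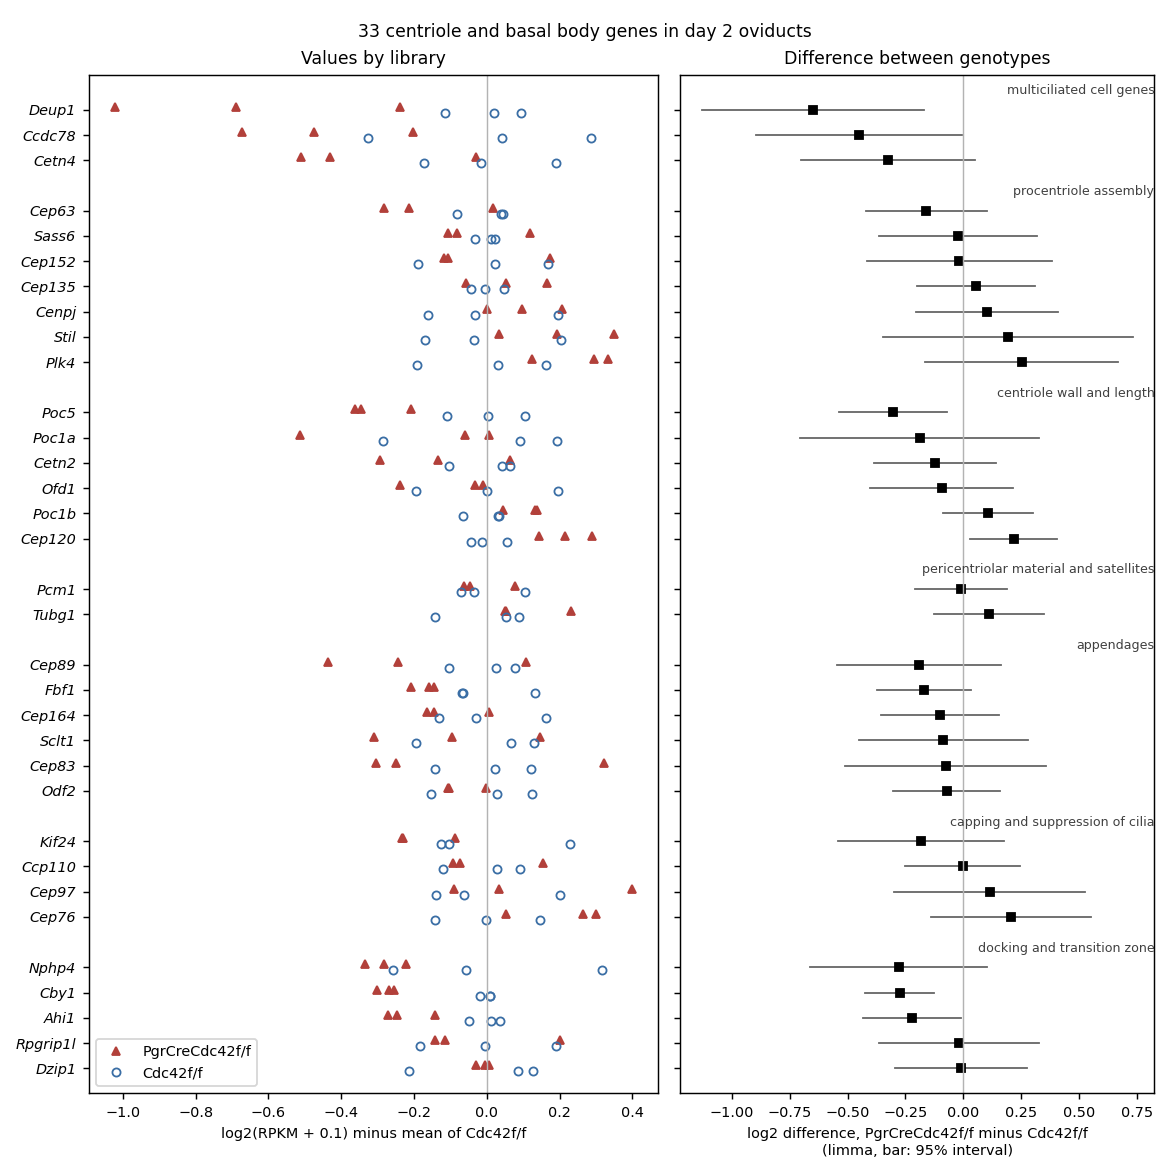
Left, log2(RPKM + 0.1) of each of the 33 genes in each library, minus the mean of the Cdc42f/f libraries, with triangles for 3 PgrCreCdc42f/f and circles for 3 Cdc42f/f libraries. Right, log2 difference of PgrCreCdc42f/f minus Cdc42f/f by limma with its 95% interval. Deup1, Ccdc78 and Cetn4 at the top lie at -0.65, -0.45 and -0.32, while the 30 general genes lie between -0.31 and 0.25.

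Deup1, which encodes the scaffold protein of the deuterosome, lies on chromosome 9 (GRCm38, chr9:15559864-15627933). It had 5.08, 3.69 and 2.91 RPKM in PgrCreCdc42f/f oviducts, against 5.55, 6.09 and 6.42 RPKM in Cdc42f/f oviducts. All 3 PgrCreCdc42f/f libraries were below all 3 Cdc42f/f libraries, and replicate 1 of PgrCreCdc42f/f came within 0.5 RPKM of the lowest Cdc42f/f library. The mean was 3.89 ± 1.10 RPKM in PgrCreCdc42f/f and 6.02 ± 0.44 RPKM in Cdc42f/f oviducts (SD, n = 3 each), or 64.7% of the Cdc42f/f level. The log2 difference was -0.65 ± 0.20 (SE), with a 95% interval from -1.13 to -0.17, and it missed the threshold (limma, adjusted p = 0.144; exact two-sided permutation p = 0.1, the smallest that 3 against 3 libraries allow). When each library was left out in turn, the log2 difference lay between -0.86 without PgrCreCdc42f/f replicate 1 and -0.46 without PgrCreCdc42f/f replicate 3, and the adjusted p by limma between 0.0563 without PgrCreCdc42f/f replicate 1 and 0.326 without Cdc42f/f replicate 2. These values rest on 451 to 1026 recovered reads per library. The study reported Deup1 as significantly reduced in mice of these genotypes, both by RNA-seq and by qPCR. That RNA-seq is of the same libraries, and the study's methods give no adjusted threshold for it. Deup1 was not called here at an adjusted p below 0.05. Since the libraries are the same, the direction of Deup1 here is not independent evidence.

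Ccdc78 encodes a coiled-coil protein that, in Xenopus, acts in deuterosome-based centriole amplification (chr17:25786580-25790513). It had 35.9, 25.9 and 29.8 RPKM in PgrCreCdc42f/f oviducts, against 33.01, 50.5 and 42.6 RPKM in Cdc42f/f oviducts. The groups overlapped, as PgrCreCdc42f/f replicate 1 was above Cdc42f/f replicate 1. The log2 difference was -0.45 ± 0.19 (SE, limma, adjusted p = 0.236), and 10.5% of the exon bases of Ccdc78 also lie in genes on the opposite strand, Fam173a among them. Whether reads were counted by strand is not stated, so the value is less certain to that extent.

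Cetn4 encodes a centrin, a small calcium-binding protein of centrioles, that is found mainly in ciliated tissue (chr3:37307749-37312708). It had 11.6, 8.75 and 8.27 RPKM in PgrCreCdc42f/f oviducts, against 10.5, 13.5 and 11.7 RPKM in Cdc42f/f oviducts. Replicate 1 of PgrCreCdc42f/f lay among the Cdc42f/f libraries, and the other two were below all of them. The log2 difference was -0.32 ± 0.16 (SE, limma, adjusted p = 0.301). With Deup1 and Ccdc78 alone the median log2 difference of the multiciliated cell genes was -0.55.

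Both Deup1 and Cetn4 have a relative among the general genes, which gives a comparison within each library. Deup1 is a paralog of Cep63, whose product acts at the parent centriole. Cep63 had 5.49, 4.66 and 4.44 RPKM in PgrCreCdc42f/f oviducts, against 5.57, 5.60 and 5.11 RPKM in Cdc42f/f oviducts, and its groups overlapped (log2 difference -0.16 ± 0.11, SE, limma, adjusted p = 0.458). The ratio of Deup1 to Cep63 in RPKM was 0.925, 0.792 and 0.655 in PgrCreCdc42f/f oviducts, against 0.996, 1.09 and 1.26 in Cdc42f/f oviducts. The ratio averaged 0.791 ± 0.135 in PgrCreCdc42f/f and 1.11 ± 0.13 in Cdc42f/f oviducts (SD, n = 3 each), without overlap between the genotypes. Cetn2 encodes a centrin and is the one among the general genes. The ratio of Cetn4 to Cetn2 was 0.450, 0.436 and 0.368 in PgrCreCdc42f/f oviducts, against 0.414, 0.524 and 0.510 in Cdc42f/f oviducts, and these overlapped. Both ratios were chosen with the values known and were not tested.

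The promoters of the members were searched for the motif of RFX factors, which are known to switch on ciliary genes through X-boxes. RefSeq gave a promoter for 29 of 33 members on GRCm38.p6, leaving out Cep120, Tubg1, Pcm1 and Cep76. Within 250 bases before the start and on both strands, the single site GTTGCC was found for 5 of 29 members (17.2%), namely Deup1, Ccdc78, Cetn2, Kif24 and Cby1, and for 11.8% of 27025 genes. A looser pair of such sites facing each other, GTNNCC and GGNNAC with NN between them, was found for Deup1, Cep83 and Nphp4 (3 of 29, 10.3%) and for 1.81% of all genes. The stricter pair, GTTNCC and GGNAAC with NN between them, was found for 0 of 29 members and for 0.444% of all genes. The 3 promoters printed here belong to the members with an unadjusted p below 0.05 that hold the single site, and the match is in capitals. For Deup1, on the minus strand, the capitals mark the looser pair, which starts 87 bases before the RefSeq start and contains the single site read on the other strand as GGCAAC. They mark GGCAAC 15 bases before the RefSeq start of Ccdc78 and GTTGCC 35 bases before the RefSeq start of Cby1, both genes on the plus strand. For Cby1, GENCODE gives a start at 79659199, inside its printed window and after its capitals, so by GENCODE the distance is shorter. GENCODE places the start of Deup1 at 15627933, inside the printed window and at the first of its capitals, so by GENCODE these letters lie at the beginning of the transcript and not before it. Another RefSeq start of Deup1 had no match before it. A match is a description of letters, not a bound site.
Deup1 promoter, chr9:15627847-15628096: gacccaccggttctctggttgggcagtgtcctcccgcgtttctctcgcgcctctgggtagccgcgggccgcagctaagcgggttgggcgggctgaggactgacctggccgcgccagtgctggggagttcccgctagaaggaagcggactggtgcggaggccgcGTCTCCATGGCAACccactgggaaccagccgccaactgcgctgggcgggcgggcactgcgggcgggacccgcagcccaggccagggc
Ccdc78 promoter, chr17:25786330-25786579: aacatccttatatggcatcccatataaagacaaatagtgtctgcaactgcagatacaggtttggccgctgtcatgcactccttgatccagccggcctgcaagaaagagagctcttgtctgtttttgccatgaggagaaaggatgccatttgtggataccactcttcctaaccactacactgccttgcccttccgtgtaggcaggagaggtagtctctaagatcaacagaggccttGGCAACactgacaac
Cby1 promoter, chr15:79658977-79659226: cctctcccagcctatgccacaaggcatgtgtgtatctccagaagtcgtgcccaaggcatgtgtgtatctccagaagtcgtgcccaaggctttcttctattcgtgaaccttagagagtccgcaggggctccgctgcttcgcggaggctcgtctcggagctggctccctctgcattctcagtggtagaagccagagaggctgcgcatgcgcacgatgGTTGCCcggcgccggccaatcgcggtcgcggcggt

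Procentriole assembly begins when PLK4 is recruited to the parent centriole and, with STIL and SASS6, sets the site of a new centriole. Of these 7 general genes 0 were called, 3 had a negative and 4 a positive log2 difference, and the median was 0.05. For this and the role groups below, 1.65% of all tested genes were called and 49.1% had a negative log2 difference. Cep63, described above, had the smallest p in the group. Plk4, the kinase, had 1.10, 1.25 and 1.29 RPKM in PgrCreCdc42f/f oviducts, against 1.03, 0.866 and 1.14 RPKM in Cdc42f/f oviducts, and the groups overlapped (log2 difference 0.25 ± 0.17, SE, limma, adjusted p = 0.462). Stil was at 0.19 and Cenpj, which sets centriole length, at 0.10 on the log2 scale. Cep135, at 0.05, and Cep152 and Sass6, both at -0.02, lay nearest to 0 in this group. For Sass6, 30.9% of exon bases are shared with opposite-strand genes. The intervals were wide here, as that of Stil ran from -0.35 to 0.73.

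Plk4 and Stil are also known to rise in dividing cells, and markers of cycling cells differed between the libraries. Of 14 such markers 12 passed the filter and 0 were called by limma, where 1.65% of all tested genes were called. All 12 had a positive log2 difference, while 49.1% of all tested genes had a negative one. The summed level of the markers was 32.1, 48.9 and 63.2 RPKM in PgrCreCdc42f/f libraries, against 32.6, 28.9 and 30.6 RPKM in Cdc42f/f libraries. Replicates 2 and 3 of PgrCreCdc42f/f were above every other library, and these were also the 2 highest libraries for Plk4. Stil did not follow this order, with 0.620, 0.796 and 0.704 RPKM in PgrCreCdc42f/f libraries, against 0.711, 0.525 and 0.586 RPKM in Cdc42f/f libraries. The part of cycling cells in the values of the procentriole genes was not tested.

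Genes for the centriole wall and its length went both ways. Of 6 genes 0 were called, 4 had a negative and 2 a positive log2 difference, and the median was -0.11. Poc5, which encodes a centrin-binding protein of the inner wall, had 5.46, 4.90 and 4.96 RPKM in PgrCreCdc42f/f oviducts, against 5.86, 6.81 and 6.34 RPKM in Cdc42f/f oviducts. The groups did not overlap, at -0.31 ± 0.10 on the log2 scale (SE, limma, adjusted p = 0.151), and 25.7% of the exon bases of Poc5 are shared with Ankdd1b on the opposite strand. Cep120, needed for centriole elongation, had 10.8, 10.2 and 9.74 RPKM in PgrCreCdc42f/f oviducts, against 8.72, 9.16 and 8.55 RPKM in Cdc42f/f oviducts. All 3 PgrCreCdc42f/f libraries were above all 3 Cdc42f/f libraries, with a log2 difference of 0.22 ± 0.08 (SE, limma, adjusted p = 0.190). Poc1b, a wall protein, had 6.72, 6.75 and 6.32 RPKM in PgrCreCdc42f/f oviducts, against 5.85, 6.28 and 6.27 RPKM in Cdc42f/f oviducts. These did not overlap either, but the gap was under 0.1 RPKM (log2 difference 0.10 ± 0.08, SE, limma, adjusted p = 0.506), and exons of Galnt4 and Gm48768 overlap those of Poc1b. Cetn2 was at -0.12, Ofd1, a protein of the distal end, at -0.09 and Poc1a at -0.19 on the log2 scale.

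**Figure D2:**
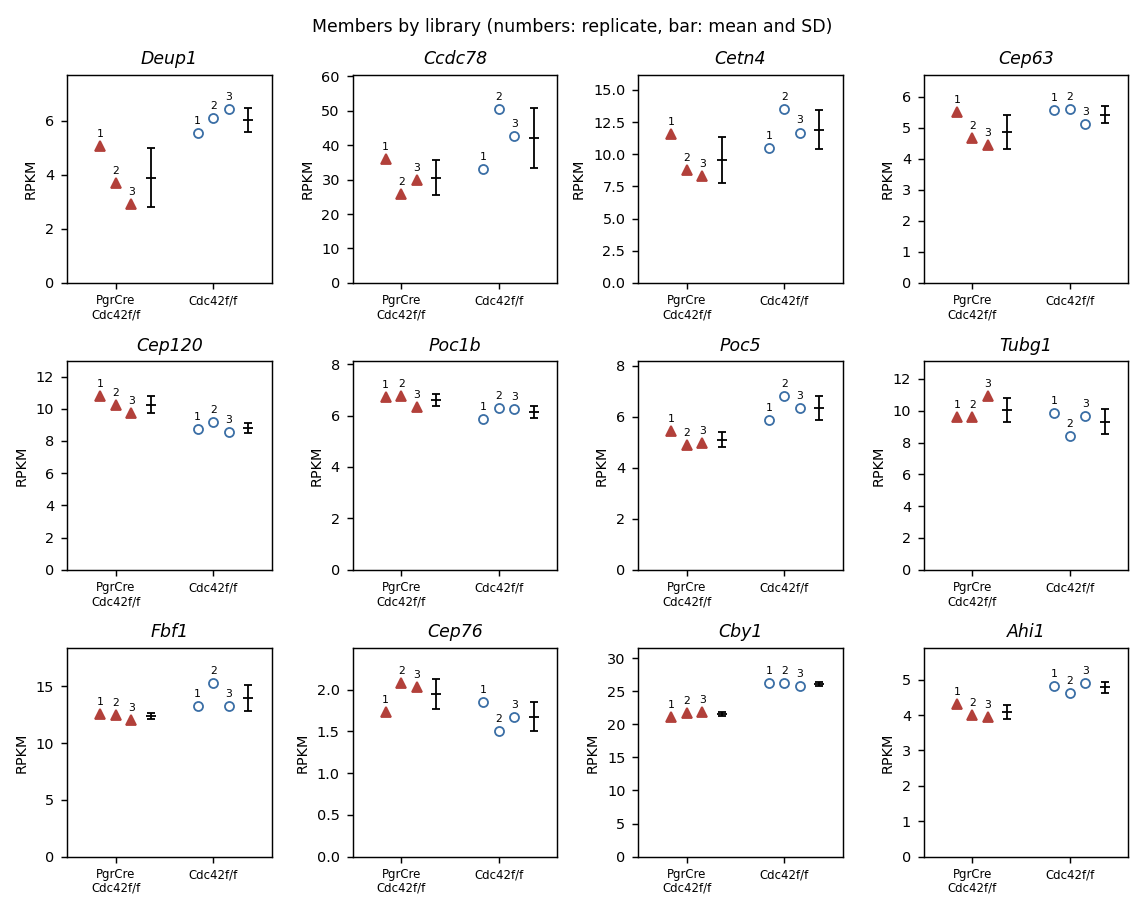
RPKM of 12 members in each library, with the PgrCreCdc42f/f libraries (triangles) left of the Cdc42f/f libraries (circles), replicate numbers beside the points and bars for the mean and SD of 3 libraries. Cby1 sits between 21.2 and 21.9 in PgrCreCdc42f/f and between 25.8 and 26.3 in Cdc42f/f oviducts, whereas Ccdc78 overlaps between the genotypes.

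The pericentriolar material and its satellites were represented by 2 genes. Tubg1 encodes the gamma-tubulin that nucleates microtubules. It had 9.63, 9.62 and 10.9 RPKM in PgrCreCdc42f/f oviducts, against 9.88, 8.41 and 9.64 RPKM in Cdc42f/f oviducts, and the groups overlapped (log2 difference 0.11 ± 0.10, SE, limma, adjusted p = 0.567). Pcm1, the scaffold of centriolar satellites, averaged 18.4 ± 0.99 RPKM in PgrCreCdc42f/f and 18.6 ± 1.23 RPKM in Cdc42f/f oviducts (SD, n = 3 each). Its log2 difference was -0.01, with a 95% interval from -0.21 to 0.19.

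Distal appendages anchor a basal body to the membrane. Of 6 appendage genes 0 were called, all 6 had a negative log2 difference, and the median was -0.09. Over all tested genes 1.65% were called and 49.1% had a negative log2 difference. Fbf1, a distal appendage protein, had 12.6, 12.5 and 12.1 RPKM in PgrCreCdc42f/f oviducts, against 13.3, 15.3 and 13.3 RPKM in Cdc42f/f oviducts. The groups did not overlap, and the log2 difference was -0.17 ± 0.08 (SE, limma, adjusted p = 0.309). The distal appendage genes Cep89, Cep164, Sclt1 and Cep83 lay between -0.19 and -0.08, and Odf2, needed for subdistal appendages, was at -0.07. Cep83 had 13.7, 8.84 and 9.19 RPKM in PgrCreCdc42f/f oviducts, against 11.1, 11.9 and 9.89 RPKM in Cdc42f/f oviducts. Its highest library of all 6 was thus PgrCreCdc42f/f replicate 1, and the other two of that genotype were below all Cdc42f/f libraries. When each library was left out in turn, the log2 difference of Cep83 lay between -0.28 and 0.04, with the lowest value without that library, and that of Sclt1 between -0.20 and 0.03, so the sign of both turned.

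The CP110 complex caps the distal end of a centriole and has to leave before a cilium grows. Of 4 genes of this group 0 were called, 2 had a negative and 2 a positive log2 difference, and the median was 0.06. Cep76 had 1.74, 2.08 and 2.03 RPKM in PgrCreCdc42f/f oviducts, against 1.86, 1.50 and 1.67 RPKM in Cdc42f/f oviducts, which overlapped (log2 difference 0.21 ± 0.14, SE, limma, adjusted p = 0.464). Ccp110, encoding CP110, averaged 9.79 ± 0.96 RPKM in PgrCreCdc42f/f and 9.80 ± 0.73 RPKM in Cdc42f/f oviducts (SD, n = 3 each), with a 95% interval of the log2 difference from -0.25 to 0.24. Cep97, the partner of CP110, was at 0.11, and Kif24, a kinesin that binds the complex, was at -0.18.

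Of 5 genes for docking and the transition zone, 0 were called and all 5 had a negative log2 difference, with a median of -0.22. Over all tested genes 1.65% were called and 49.1% had a negative log2 difference. The signs of Rpgrip1l and Dzip1 turned when single libraries were left out, up to 0.07 and 0.05. Cby1, whose product sits at the distal appendages and helps basal bodies to dock in multiciliated cells, had the smallest p of all 33 genes. It had 21.2, 21.7 and 21.9 RPKM in PgrCreCdc42f/f oviducts, against 26.3, 26.3 and 25.8 RPKM in Cdc42f/f oviducts. The spread within each genotype was small, at 21.6 ± 0.35 RPKM in PgrCreCdc42f/f and 26.1 ± 0.28 RPKM in Cdc42f/f oviducts (SD, n = 3 each), and the groups did not overlap. The level in PgrCreCdc42f/f oviducts was 82.6% of that in Cdc42f/f oviducts, with a log2 difference of -0.27 ± 0.06 (SE) and a 95% interval from -0.42 to -0.13, which missed the threshold (limma, adjusted p = 0.0800; exact two-sided permutation p = 0.1). Unlike Deup1, Cby1 was not highest in PgrCreCdc42f/f replicate 1, and its log2 difference lay between -0.28 and -0.26 when each library was left out. Over the alternative settings its adjusted p by limma or voom lay between 0.0728 and 0.227.

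Ahi1 encodes a transition zone protein and had 4.33, 4.01 and 3.95 RPKM in PgrCreCdc42f/f oviducts, against 4.82, 4.62 and 4.91 RPKM in Cdc42f/f oviducts. The groups did not overlap, at -0.22 ± 0.09 on the log2 scale (SE, limma, adjusted p = 0.225). Nphp4, of the same zone, had a log2 difference of -0.28 ± 0.16 (SE, limma, adjusted p = 0.372), and its PgrCreCdc42f/f libraries were at 3.47, 3.32 and 3.20 RPKM, against 3.38, 5.08 and 3.91 RPKM in Cdc42f/f libraries. Rpgrip1l, a scaffold of the zone, was at -0.02, and Dzip1, a partner of Cby1 at the ciliary base, was at -0.01, with 28.4% of its exon bases shared with an opposite-strand gene.

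The length behind each RPKM was that of all annotated exons of a gene, 2118 bases for Ccdc78 and 14688 for Rpgrip1l. The order of genes by level therefore also depends on the annotation. By level, Ccdc78 was the highest of the 33 genes in both genotypes. It averaged 30.5 ± 5.04 RPKM in PgrCreCdc42f/f and 42.0 ± 8.74 RPKM in Cdc42f/f oviducts (SD, n = 3 each). In Cdc42f/f oviducts it stood at the 94.6th percentile of all tested genes. Cetn2, Cby1, Pcm1 and Fbf1 followed in both genotypes. In PgrCreCdc42f/f oviducts the order of Cetn2 and Cby1 was the reverse of that in Cdc42f/f oviducts, and the values of Cetn2, from 20.1 to 25.8 RPKM, spanned those of Cby1. Deup1 was at place 22 of 33 in PgrCreCdc42f/f and at place 16 of 33 in Cdc42f/f oviducts. The lowest were Plk4, at 1.22 ± 0.10 RPKM in PgrCreCdc42f/f and 1.01 ± 0.14 RPKM in Cdc42f/f oviducts, and Stil, at 0.707 ± 0.088 RPKM in PgrCreCdc42f/f and 0.608 ± 0.094 RPKM in Cdc42f/f oviducts.

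The libraries of a genotype were not alike. Among PgrCreCdc42f/f libraries, replicate 1 was highest for 22 of the 33 genes, for all 3 multiciliated cell genes and for 19 of 30 general genes, where it was highest for 6368 of 17584 tested genes. The median of the multiciliated cell genes, on the log2 scale relative to the Cdc42f/f mean, was -0.20, -0.67 and -0.51 in PgrCreCdc42f/f libraries and -0.17, 0.19 and 0.04 in Cdc42f/f libraries. That of the general genes was 0.06, -0.10 and -0.09 in PgrCreCdc42f/f libraries and 0.02, 0.06 and -0.04 in Cdc42f/f libraries. So the general genes of replicate 1 were as high as in Cdc42f/f libraries, and its multiciliated cell genes were close to those of Cdc42f/f replicate 1. The medians of the axoneme markers had the same order within PgrCreCdc42f/f, at -0.23, -0.88 and -0.72, against -0.23, 0.34 and -0.19 in Cdc42f/f libraries. Taken singly, Deup1 and Cetn4 were lowest in PgrCreCdc42f/f replicate 3, whereas Ccdc78 and the axoneme median were lowest in replicate 2. Of 15 axoneme markers 14 had a negative log2 difference (93.3%), where 49.1% of all tested genes had one. By limma 0 were called and 8 had an unadjusted p below 0.05, against 20.8% of all tested genes. Dnaaf1 was at -1.02 and Hydin at -0.93, while Tppp3 was the only positive marker, at 0.22. Some of these markers, such as Dnaaf1, Rsph1 and Ccdc40, were picked by the study from the same comparison. The part of the number of ciliated cells in the values of the centriole genes was not tested.

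**Figure D3:**
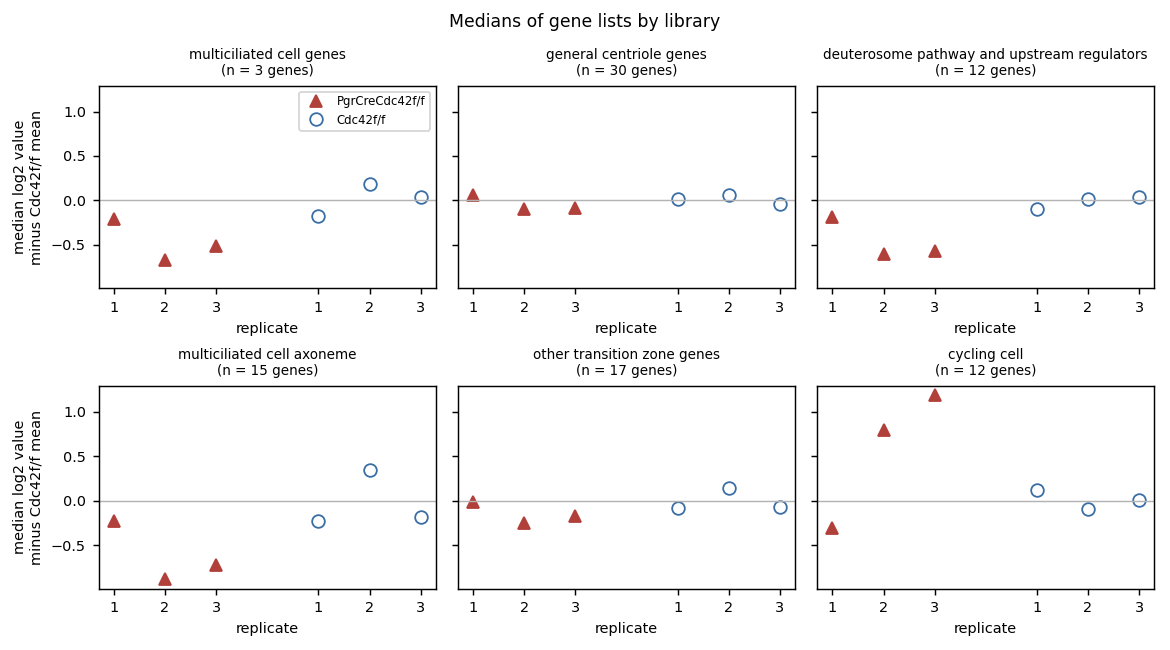
Median over the genes of each list of log2(RPKM + 0.1) minus the Cdc42f/f mean, 1 point per library, with 3 PgrCreCdc42f/f libraries (triangles) left of 3 Cdc42f/f libraries (circles). The 3 multiciliated cell genes lie at -0.20, -0.67 and -0.51 in PgrCreCdc42f/f, and the 30 general centriole genes between -0.10 and 0.06.

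Markers of other cell types varied between the libraries as well. Smooth muscle markers had a summed level of 2335 to 2888 RPKM in PgrCreCdc42f/f libraries and 1652 to 2567 RPKM in Cdc42f/f libraries, and all 7 had a positive log2 difference, with Myh11 at 0.72 and Des at 0.42. Epithelial markers summed to 1201 to 1402 RPKM in PgrCreCdc42f/f and 1246 to 1321 RPKM in Cdc42f/f libraries, and 4 of 6 were positive, with Krt8 at 0.57 and Epcam at 0.39. Leukocyte markers summed to 170 to 294 RPKM in PgrCreCdc42f/f and 130 to 159 RPKM in Cdc42f/f libraries, and all 6 that passed the filter were positive, with Cd68 at 0.63 and Ptprc at 0.43. Secretory cell markers summed to 1991 to 3612 RPKM in PgrCreCdc42f/f and 2741 to 4032 RPKM in Cdc42f/f libraries. Of these 5 markers 2 were positive, Lcn2 at 1.47 and Msln at 0.26. The other 3 were negative, with Wt1 at -0.20, Ovgp1 at -0.36 and Pax8 at -0.84. Of the cycling cell markers, Pcna was at 0.49 and Top2a at 1.14. In these lists 0 genes were called by limma, and voom called Krt8 and Lcn2 higher. An unadjusted p below 0.05 by limma was found for 3 of 6 epithelial and 3 of 7 smooth muscle markers. It was also found for 2 of 6 leukocyte, 2 of 5 secretory and 2 of 12 cycling cell markers. The share over all tested genes was 20.8%, and 49.1% of all tested genes had a negative log2 difference. The part of these cell types in the values of the centriole genes was not tested.

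Upstream of the deuterosome, GMNC and MCIDAS start the multiciliated programme with E2F factors, MYB, TRP73, RFX factors and FOXJ1 carry it on, and CCNO and CDC20B act in centriole amplification. Of 12 such genes, 1 fell and 0 rose in PgrCreCdc42f/f oviducts by limma, where 0.893% of all tested genes were called lower. The log2 difference was negative for 11 (91.7%), against 49.1% of all tested genes, and the median was -0.43. An unadjusted p below 0.05 by limma was found for 6, all lower, against 11.0% lower of all tested genes. The genotypes did not overlap in 6 (50%), all lower, against 13.9% lower of all tested genes. The gene that fell was Myb, with 3.54, 2.60 and 2.33 RPKM in PgrCreCdc42f/f oviducts, against 5.40, 6.30 and 5.62 RPKM in Cdc42f/f oviducts. The groups did not overlap and the log2 difference was -1.02 ± 0.17 (SE, limma, adjusted p = 0.0455). The adjusted p of Myb was above 0.05 when any library other than PgrCreCdc42f/f replicate 1 was left out, and was 0.0294 without that one. The study reported Myb, Ccno, Mcidas, Trp73 and Foxj1 as significantly reduced in these genotypes by RNA-seq and qPCR, and measured Gmnc by qPCR. Of the genes it reported as reduced, only Myb was called here, and its RNA-seq is of the same libraries. The counts of this list are therefore not independent evidence.

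Ccno, Cdc20b and Mcidas, which adjoin each other on chromosome 13, are named here after their values were seen. Ccno had 1.57, 0.848 and 0.334 RPKM in PgrCreCdc42f/f oviducts, against 2.02, 2.10 and 2.34 RPKM in Cdc42f/f oviducts (log2 difference -1.35 ± 0.46, SE, limma, adjusted p = 0.174). Cdc20b had 0.761, 0.425 and 0.152 RPKM in PgrCreCdc42f/f oviducts, against 1.18, 0.827 and 2.18 RPKM in Cdc42f/f oviducts (log2 difference -1.52 ± 0.53, SE, limma, adjusted p = 0.179). For Mcidas the values were 1.21, 0.783 and 0.0539 RPKM in PgrCreCdc42f/f oviducts, against 2.05, 1.28 and 0.863 RPKM in Cdc42f/f oviducts (log2 difference -1.33 ± 0.81, SE, limma, adjusted p = 0.403). In all 3 genes the PgrCreCdc42f/f libraries differed more among themselves on the log2 scale than for any member, with replicate 1 highest and replicate 3 lowest, and only Mcidas overlapped between the genotypes. Mcidas rested on as few as 6 recovered reads and Cdc20b on as few as 13. Foxj1, a master regulator of motile cilia, had 95.5, 57.2 and 66.3 RPKM in PgrCreCdc42f/f oviducts, against 83.9, 120 and 99.7 RPKM in Cdc42f/f oviducts, and overlapped (log2 difference -0.49 ± 0.22, SE, limma, adjusted p = 0.266). Rfx2, an RFX factor, was at -0.37 ± 0.10 (SE, limma, adjusted p = 0.119).

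**Figure D4:**
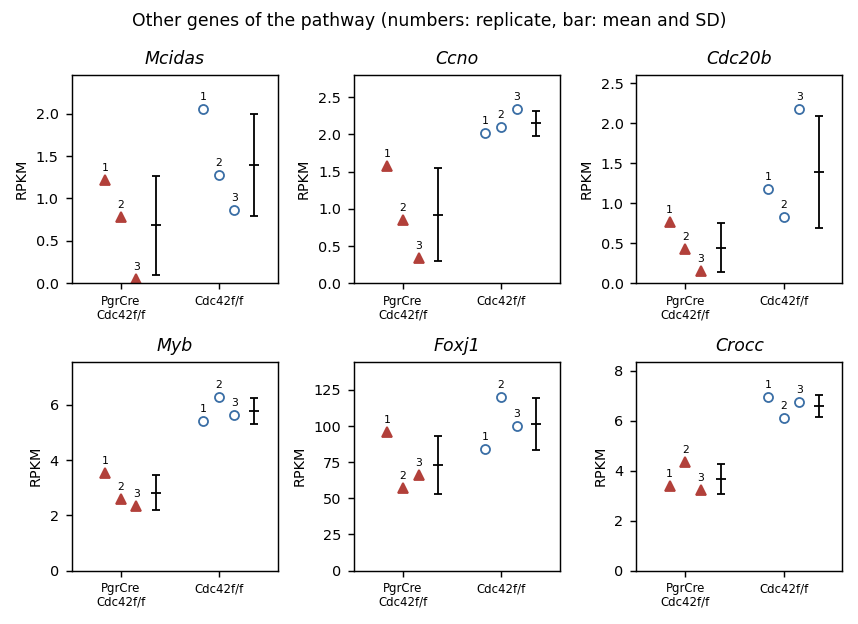
RPKM of 6 related genes in each library, with the PgrCreCdc42f/f libraries (triangles) left of the Cdc42f/f libraries (circles), replicate numbers beside the points and bars for the mean and SD of 3 libraries. Myb and Crocc do not overlap between the genotypes and were called lower by limma, whereas Foxj1 and Mcidas overlap.

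Other genes of the same structures were set beside the members. Of 11 further appendage and rootlet genes 0 rose and 1 fell by limma, 6 had a negative and 5 a positive log2 difference, and the median was -0.05. At an unadjusted p below 0.05 by limma there were 3 lower and 3 higher. Of all tested genes 20.8% passed this, 11.0% lower and 9.74% higher, and 0.893% were called lower. In 7 of the 11 genes (63.6%) the genotypes did not overlap, 3 of them lower and 4 higher. Over all tested genes 27.4% did not overlap, 13.9% lower and 13.5% higher. The gene that fell was Crocc, which encodes rootletin, the main protein of the ciliary rootlet. It had 3.41, 4.35 and 3.25 RPKM in PgrCreCdc42f/f oviducts, against 6.97, 6.11 and 6.75 RPKM in Cdc42f/f oviducts, without overlap (log2 difference -0.84 ± 0.13, SE, limma, adjusted p = 0.0428). Its adjusted p was above 0.05 when any 1 of the 6 libraries was left out, and was 0.0693 without PgrCreCdc42f/f replicate 1. Crocc did not follow the order of the ciliary genes, since replicate 2 was its highest PgrCreCdc42f/f library. Cep170, of the subdistal appendages, was at 0.38 ± 0.12 (SE, limma, adjusted p = 0.148).

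Of 18 further transition zone genes 17 passed the filter, 0 were called by limma or voom, 2 had an unadjusted p below 0.05, 16 had a negative log2 difference, and the median was -0.18. Over all tested genes 20.8% had such a p by limma and 49.1% a negative log2 difference. Mks1 was at -0.42 ± 0.13 (SE, limma, adjusted p = 0.142) and Tctn3 at -0.33 ± 0.12 (SE, limma, adjusted p = 0.188). Their median in the PgrCreCdc42f/f libraries was -0.02, -0.25 and -0.17, against -0.08, 0.14 and -0.07 in Cdc42f/f libraries, so replicate 1 was again the highest of PgrCreCdc42f/f. Of 19 further centriole assembly genes 0 were called by limma or voom, 1 had an unadjusted p below 0.05, 10 had a negative and 9 a positive log2 difference, and the median was -0.03. Wdr62, a centrosomal protein, was at -0.46 ± 0.17 (SE, limma, adjusted p = 0.188) and Cntrob, centrobin, at -0.21 ± 0.10 (SE, limma, adjusted p = 0.300).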

How the data were processed

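RNA of whole oviducts, in 3 PgrCreCdc42f/f and 3 Cdc42f/f libraries, was read on a BGISEQ-500. A table of RPKM values was deposited. The submitters' processing notes name HISAT2, edgeR and the build mm10 (GRCm38), and the study's methods give Tophat2. Their roles in making the table, and any use of strand, are not stated.

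The RPKM were multiplied by GENCODE M21 exon lengths, and 98.8% of 35358 rows came out whole (tolerance 0.01 read) in each of the 6 libraries. Even numbers made up 64.9% of read numbers 1 to 20, so reads may not all be separate fragments.

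Genes with at least 0.5 RPKM in at least 3 of 6 libraries were tested on log2(RPKM + 0.1), which understates the change of low genes, with limma 3.58.1 in R 4.3.3 (lmFit, eBayes with a variance trend, two-sided, no covariates), adjusted by Benjamini-Hochberg over 17584 genes and called below 0.05. The fit was checked on simulated data. Members and lists were chosen with earlier results of these data known. Library values are given for the multiciliated cell genes, called genes, members without overlap and the smallest p of each role group; of other lists, called genes and the 2 smallest p are named, with Foxj1 and Cdc42. Plk4, Cep83, Nphp4, 3 regulators, Msln, Wt1, Ovgp1 and Tppp3 were added after their values were seen. The fit was repeated with limma voom on the recovered reads, with each library left out, with a block for the replicate number, without the variance trend, after quantile or median ratio scaling, with pseudocounts of 0.01 and 1, without the filter and with a mean of at least 2 RPKM.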

Additional observations from a re-analysis of the deposited data

How the results depend on the processing

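Over every alternative, 0 of the 33 members were called, and the smallest adjusted p of any member by limma was 0.0563, for Deup1 without PgrCreCdc42f/f replicate 1. The median of the multiciliated cell genes stayed negative throughout, whereas that of the general genes was 0.00 without PgrCreCdc42f/f replicate 2 and 0.01 without PgrCreCdc42f/f replicate 3. The number of members with a negative log2 difference lay between 17 and 26 when 1 library was left out.

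Over all tested genes, 134 were called higher and 157 lower. Without the filter 57 were called higher and 51 lower, and without the variance trend 75 higher. When 1 library was left out, between 9 and 118 were called higher and between 2 and 173 lower, with the highest counts without PgrCreCdc42f/f replicate 1 and the lowest lower count without Cdc42f/f replicate 3. By voom 199 were called higher and 221 lower. Crocc and Myb were called by voom but not without the filter or without the variance trend. The cause was not tested.

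With the replicate number as a block 0 genes were called higher and 0 lower, Crocc and Myb included. Deviations of libraries with the same number correlated at -0.033, -0.074 and 0.081, so the numbers give no sign of pairing.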
